A study of Mus musculus with 7 samples.

Results

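Class C receptors are G protein-coupled receptors with a large extracellular domain that, in most members, binds a small molecule such as glutamate, GABA or calcium. The transcripts of 9 of them (Casr, Grm3, Grm4, Grm5, Grm7, Gabbr1, Gabbr2, Gprc5b and Gprc5c) were followed in P14 optic nerves of control and Fasn mutant mice, out of 22880 genes with values. These genes were picked by name with their levels in both genotypes already known. The differences between genotypes are therefore given as values with a fold change and its standard error, and no test is reported for them.

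By the labels, control mice carried FASN lox/lox without Cre, and mutant mice carried olig2cre together with FASN lox/lox, so both genotypes share the floxed alleles of fatty acid synthase. The methods of the study also allow controls with 1 floxed and 1 wild-type allele in this cross. Nerves came from 4 control mice and 3 mutant mice aged 14 days, on a C57Bl/6 background. The floxed line originated in 129X1/SvJ, was crossed with a mix of 129X1/SvJ, C57BL/6 and DBA, and had at least 3 generations of backcrossing to C57Bl/6, and the Olig2Cre line was kept on C57Bl/6. Both nerves of 1 mouse made up 1 sample. Cre is driven by Olig2 regulatory elements, which act in the oligodendrocyte lineage. Since controls lack Cre, effects of Cre itself and of losing Fasn cannot be told apart. Recovered reads per sample ran from 27452222 to 43462575. Fasn itself had an FPKM (fragments scaled for transcript length and library size) of 205 ± 25.1 (SD, n = 4) in nerves of controls against 56.3 ± 11.3 (SD, n = 3) in those of mutants, or 27.5%.

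The calcium-sensing receptor, encoded by Casr, works as a homodimer and couples mainly to Gq and Gi proteins. It is best known for setting parathyroid hormone release, and is also made by cells of the oligodendrocyte lineage. Metabotropic glutamate receptors fall into group I, which includes Grm5 and activates phospholipase C, and groups II (Grm2, Grm3) and III (Grm4, Grm6, Grm7, Grm8), which inhibit adenylyl cyclase. The GABA-B receptor needs both subunits, since Gabbr1 binds GABA and Gabbr2 couples to the G protein. Gprc5b and Gprc5c are orphan receptors with a short extracellular part.

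In the optic nerve Casr and Grm4 were at 42.9% and 40.4% of their control levels in mutants, with no overlap between genotypes. Gprc5b and Gprc5c were higher in every mutant than in every control sample. In Grm3, Grm5, Grm7, Gabbr1 and Gabbr2 the samples of the genotypes overlapped. All 9 genes passed the filter, which asked 3 or more samples to reach 0.5 FPKM, as did 13866 genes in all. The mutant samples lay below all control samples in 8.26% of the genes tested above them in 12.9% and on either side in 21.1%, against 2, 2 and 4 of the 9 receptors. The median log2 fold change of the 9 receptors was 0.00, and that of all genes tested was 0.05. As the receptors were chosen on this contrast, nothing is read from these counts.

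**Figure D1:**
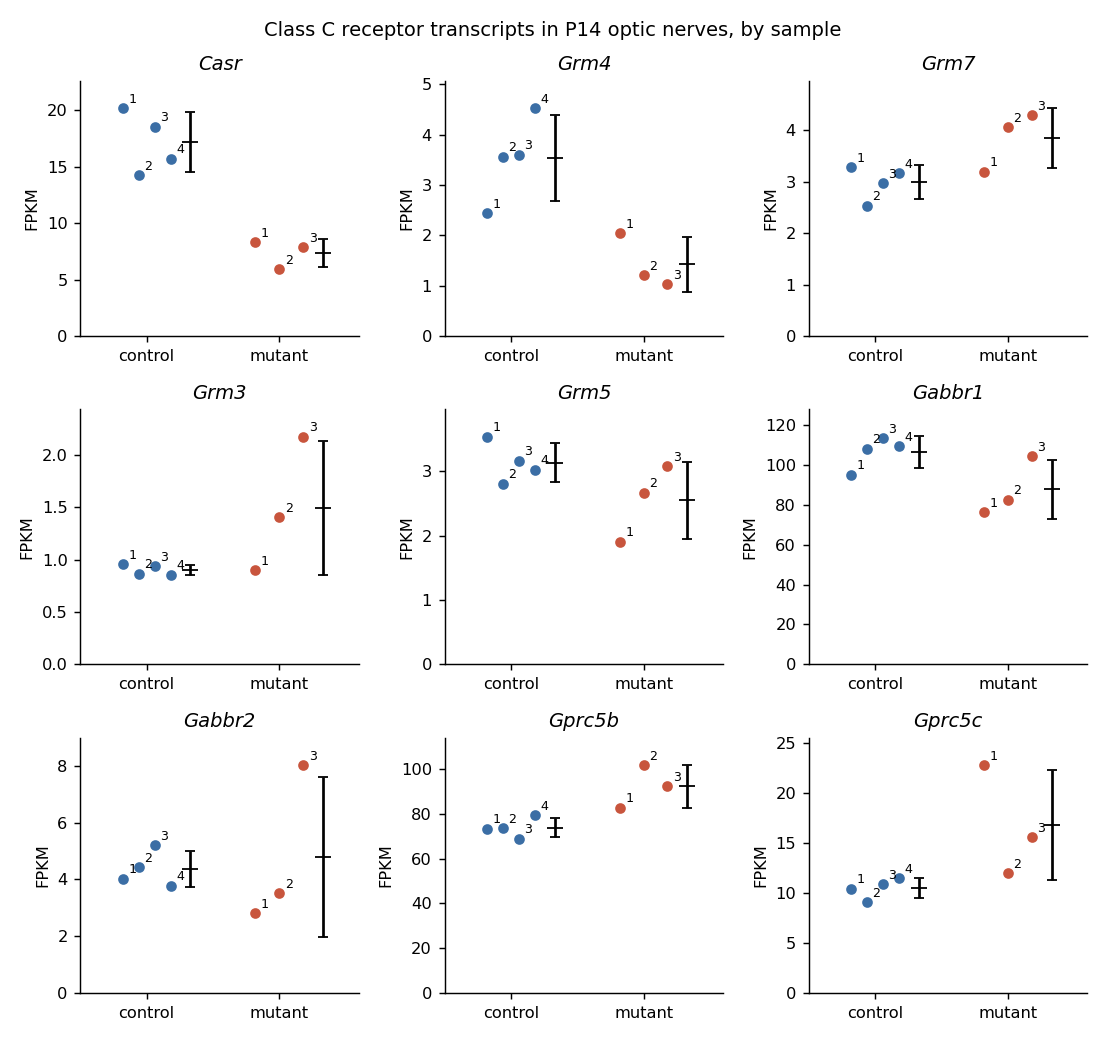
FPKM of each receptor transcript (vertical axes, starting at 0) in control samples 1 to 4 and mutant samples 1 to 3, with 1 numbered point per mouse and bars giving the mean ± SD. The genotypes are apart for Casr, Grm4, Gprc5b and Gprc5c, and mutant sample 3 is the highest sample for Grm3, Grm7 and Gabbr2.

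An optic nerve is a mixture of cells, so fewer cells of a type and less RNA per cell cannot be told apart for any gene here. The summed FPKM of 8 progenitor markers of the oligodendrocyte lineage was 468 to 524 in control and 363 to 401 in mutant samples, with 4 of 8 lower past a threshold of 0.05 (limma-trend on log2(FPKM + 0.5), with Benjamini-Hochberg adjustment over all genes tested). Over all 13866 genes 1.36% were past it and lower in mutants and 1.26% past it and higher. The largest part of the progenitor sum was Gpr17 (241 ± 26.8 and 164 ± 14.7), which the paper lists with transcripts of myelin-forming oligodendrocytes. Pdgfra, the paper's progenitor marker, overlapped between genotypes at 48.4 ± 8.35 and 43.4 ± 4.04 (adjusted p = 0.537, limma-trend). Of the 8, 7 had a negative log2 fold change and 1, Bmp4, a positive one (0.16). The sum of 9 markers of myelinating oligodendrocytes was 55186 to 62917 and 39985 to 51340. Of these markers 2 were lower past the threshold, Mag and Cnp, which code for proteins of the myelin sheath. Neither passed with samples paired by number (adjusted p = 0.0726 and 0.0605, limma-trend), and only Mag of the 2 passed with edgeR (0.0447, against 0.0646 for Cnp). The sum of 9 astrocyte markers, Slc1a2 among them, was 3344 to 3753 and 4285 to 5143, with 4 of 9 higher (6 of 9 past the threshold with pairing). The sum of 7 endothelial markers was also higher in every mutant sample, at 149 to 175 and 179 to 206, with 0 of 7 past the threshold of limma-trend (4 at an unadjusted p under 0.05, 0 with edgeR, 2 with DESeq2 and 2 with pairing). Over all genes tested, 24.4% had such an unadjusted p, and 2.45% passed with edgeR, 8.95% with DESeq2 and 8.36% with pairing. Sums of the oligodendrocyte lineage move with genotype as Casr and Grm4 do, and those of astrocytes and endothelium as Gprc5b and Gprc5c do, and their part in the results was not tested.

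Casr (ENSMUSG00000051980) spans 36493696 to 36562134 of chromosome 16 (GRCm38, as all coordinates here, minus strand), and its longest reading frame in GENCODE M21 has 1079 codons. Control samples 1 to 4 had an FPKM of 20.17, 14.26, 18.53 and 15.72, and mutant samples 1 to 3 had 8.314, 5.932 and 7.851. The highest mutant sample thus stayed well below the lowest control sample. The means were 17.2 ± 2.67 (SD, n = 4) and 7.37 ± 1.26 (SD, n = 3), with mutants at 42.9% of controls. On the log2 scale the difference was -1.17 (standard error 0.145), and it ran from -1.26 to -1.03 with 1 sample left out in turn. These values rest on at least 2051 reads per control sample and 768 per mutant sample.

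The 250 bases upstream of the annotated start of Casr are shown because it is the more abundant of the pair that was lower in every mutant than in every control sample. They lie at chr16:36562135-36562384 of GRCm38, are printed 5′ to 3′ on the minus strand, and come from RefSeq (GRCm38.p6). The matching stretches of Gabbr1 (chr17:37045716-37045965, plus strand) and Gprc5b (chr7:118995212-118995461, minus strand), the most abundant receptors of all, are set beside it. In each of these genes the RefSeq start is the start in the deposited table. Capitals mark E-boxes (CANNTG) and the SOX core (ACAAAG on either strand), letters that basic helix-loop-helix and SOX factors can bind.
Casr: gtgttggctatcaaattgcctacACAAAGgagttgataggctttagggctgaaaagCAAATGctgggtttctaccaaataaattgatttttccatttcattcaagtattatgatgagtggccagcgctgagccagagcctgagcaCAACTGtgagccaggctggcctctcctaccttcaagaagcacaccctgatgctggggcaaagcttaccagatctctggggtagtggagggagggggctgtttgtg
Gabbr1: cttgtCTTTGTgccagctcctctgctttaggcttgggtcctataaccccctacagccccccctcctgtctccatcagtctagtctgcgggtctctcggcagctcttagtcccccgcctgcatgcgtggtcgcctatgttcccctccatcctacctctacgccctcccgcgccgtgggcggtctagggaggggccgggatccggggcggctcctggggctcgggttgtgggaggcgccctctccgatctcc
Gprc5b: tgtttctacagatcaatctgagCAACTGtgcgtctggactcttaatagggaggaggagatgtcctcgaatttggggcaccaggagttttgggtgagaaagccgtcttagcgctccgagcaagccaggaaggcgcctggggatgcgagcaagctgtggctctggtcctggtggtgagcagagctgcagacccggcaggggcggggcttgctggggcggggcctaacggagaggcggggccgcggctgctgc

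The window of Casr holds 2 E-boxes and 1 SOX core, and its GC content is 48.8%. The window of Gabbr1 has 1 SOX core, 2 GC boxes (GGGCGG, either strand) and 66.0% GC, and that of Gprc5b 1 E-box, 2 GC boxes and 62.4% GC. Casr had 0 GC boxes, whereas Grm3 and both starts of Grm7 had 1 each and Gabbr2 had 2. No window of the 6 receptors with a RefSeq entry held a TATA box (TATAAA) or the core of a CRE (TGACG), both searched on either strand, which says only that these letters are not in these windows. Grm4, Grm5 and Gprc5c had no entry. Over all 32851 windows of the same length, 66.2% held an E-box, 16.5% a SOX core, 32.7% a GC box, 12.4% a TATA box and 17.8% a CRE core, and the median GC content was 52.4%. These matches describe the letters only and are no measure of binding.

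The group III receptors were measured through Grm4 and Grm7. Grm4 (ENSMUSG00000063239) lies on chromosome 17 from 27422387 to 27513341 on the minus strand. Control samples 1 to 4 had 2.445, 3.562, 3.599 and 4.524 FPKM, and mutant samples 1 to 3 had 2.047, 1.206 and 1.024. The samples did not overlap, although control sample 1 and mutant sample 1 came close to each other. The means were 3.53 ± 0.851 (SD, n = 4) and 1.43 ± 0.546 (SD, n = 3), with mutants at 40.4% of controls. This is a log2 fold change of -1.08, with a standard error of 0.219, between -1.30 and -0.93 with 1 sample left out in turn, and -0.96 when samples were paired by number. Grm4 is a gene of modest expression, with 294 to 434 reads per control sample and 78 to 203 per mutant sample. A transcript model still to be tested by experiment, Gm49789, overlaps it on the opposite strand.

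Grm7 (ENSMUSG00000056755), a presynaptic receptor of low glutamate affinity, lies on chromosome 6 from 110645581 to 111567230. Its FPKM was 3.282, 2.539, 2.974 and 3.171 in control samples and 3.197, 4.068 and 4.295 in mutant samples. Mutant sample 1 lay within the control range and the others above it. Between genotypes the log2 fold change was 0.31 (standard error 0.127), between 0.24 and 0.43 with 1 sample left out. An antisense transcript, Gm20387, covers the start of the gene.

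Grm3 (ENSMUSG00000003974), the group II receptor known from astrocytes, lies on chromosome 5 from 9485541 to 9725170 and was the least abundant of the 9. Its FPKM was 0.9566, 0.8682, 0.9357 and 0.8589 in control samples, a narrow range, and 0.8991, 1.406 and 2.174 in mutant samples. Mutant sample 1 was at the control level, whereas mutant sample 3 had more than any other sample. The fitted log2 fold change was 0.45 (standard error 0.201), and without mutant sample 3 it was 0.22.

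Grm5 (ENSMUSG00000049583), a group I receptor that raises cytosolic calcium through phospholipase C, lies on chromosome 7 from 87602544 to 88134907. Its FPKM was 3.534, 2.809, 3.16 and 3.026 in control samples and 1.905, 2.668 and 3.076 in mutant samples. Mutant sample 3 fell among the controls and the others below all of them. Its log2 fold change was -0.27 (standard error 0.148), between -0.39 and -0.11 with 1 sample left out. The ratio of Grm5 to Grm7 was 1.08, 1.11, 1.06 and 0.954 in control samples and 0.596, 0.656 and 0.716 in mutant samples, so for this ratio of FPKM values, chosen after the values were seen, the genotypes did not overlap.

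Gabbr1 (ENSMUSG00000024462), the GABA-binding subunit of the GABA-B receptor, lies on chromosome 17 from 37045966 to 37075067 on the plus strand. It was the most abundant of the 9 receptors, with an FPKM of 94.85, 107.9, 113.1 and 109.1 in control samples and 76.28, 82.39 and 104.1 in mutant samples. Mutant samples 1 and 2 lay below all controls, and mutant sample 3 within their range. Between genotypes the log2 fold change was -0.29 (standard error 0.108), between -0.42 and -0.19 with 1 sample left out.

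Gabbr2 (ENSMUSG00000039809), the subunit that carries the signal to the G protein, lies on chromosome 4 from 46662318 to 46991873 and was far less abundant. Its FPKM was 4.022, 4.43, 5.206 and 3.774 in control samples and 2.811, 3.522 and 8.02 in mutant samples. Mutant samples 1 and 2 were the lowest of all samples and mutant sample 3 the highest. The fitted log2 fold change was 0.00 (standard error 0.284). It was -0.40 without mutant sample 3 and 0.28 without mutant sample 1, so no direction can be given. Per length, Gabbr1 exceeded Gabbr2 by 21.7 to 28.9 times in control samples, by 27.1 and 23.4 times in mutant samples 1 and 2, and by 13.0 times in mutant sample 3.

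Gprc5b (ENSMUSG00000008734), an orphan receptor of glia and neurons, lies on chromosome 7 from 118972040 to 118995211 on the minus strand. Its FPKM was 73.33, 73.51, 68.92 and 79.5 in control samples and 82.78, 101.7 and 92.24 in mutant samples. Every mutant sample was above the highest control sample, the closest by a small margin. Its log2 fold change was 0.32 (standard error 0.0809), between 0.24 and 0.39 with 1 sample left out. Gprc5b overlaps Iqck on the opposite strand, whose FPKM was 1.67 in control and 1.90 in mutant nerves.

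Gprc5c (ENSMUSG00000051043), a close relative of Gprc5b, lies on chromosome 11 from 114851152 to 114872617 on the plus strand. Its FPKM was 10.41, 9.092, 10.9 and 11.45 in control samples and 22.77, 11.98 and 15.57 in mutant samples. Mutant sample 1 stood well above the other mutants, and mutant sample 2 was just over the highest control. Between genotypes the log2 fold change was 0.61 (standard error 0.185), and without mutant sample 1 it was 0.37. The Gprc5b to Gprc5c ratio was 6.32 to 8.09 in control samples and 3.64, 8.49 and 5.92 in mutant samples, which overlap.

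**Figure D2:**
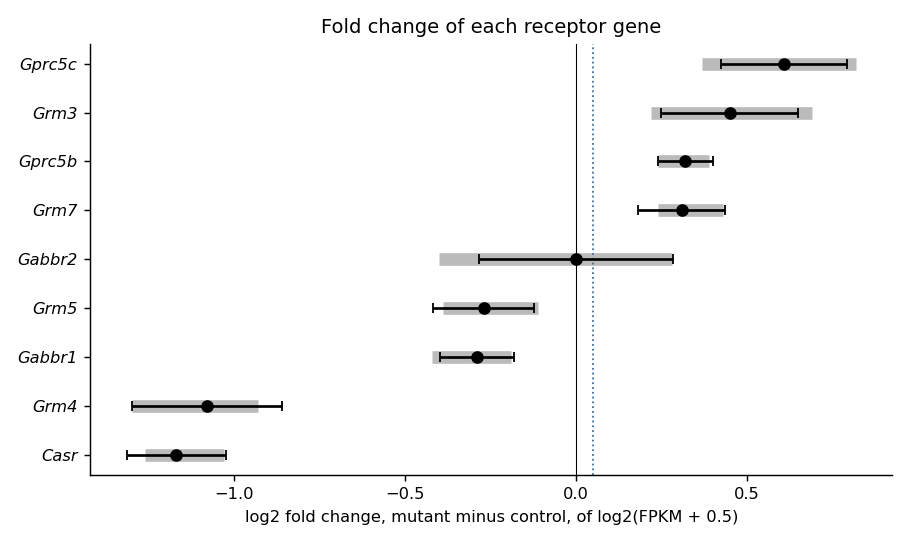
Log2 fold change (mutant over control, on log2(FPKM + 0.5), horizontal axis) of the 9 receptors, with bars for the standard error, a grey band for the range with 1 sample left out in turn, and a dotted line at the median of all genes tested, 0.05. Casr (-1.17) and Grm4 (-1.08) are farthest from that line, and the band of Gabbr2 spans both directions.

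Replicates of mutant nerves varied more than those of control nerves for each receptor. The coefficient of variation ran from 5.37% (Grm3) to 24.1% (Grm4) in control nerves and from 10.3% (Gprc5b) to 59.0% (Gabbr2) in mutant nerves. In control nerves the FPKM levels fell in the order Gabbr1, Gprc5b, Casr, Gprc5c, Gabbr2, Grm4, Grm5, Grm7 and Grm3. Gabbr2 and Grm4, Grm4 and Grm5, and Grm5 and Grm7 are neighbours in this order whose control samples overlapped, so their order does not go beyond the spread. Gprc5b was 4.30 times as abundant as Casr, and Casr 1.64 times as abundant as Gprc5c. In mutant nerves Gprc5c, at 16.8 ± 5.49 (SD, n = 3), was above Casr, at 7.37 ± 1.26 (SD, n = 3), in each sample.

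The other 13 class C receptors were all in the table, at low levels, and 4 of them passed the filter. Among these were Gprc5a, at 0.796 in control and 1.08 in mutant nerves, and Gpr158, at 0.764 and 1.06. None of the 4 was past the threshold of limma-trend, where 2.62% of all genes tested were. At an unadjusted p under 0.05 there was 1 of the 4, where 24.4% of all genes tested had such a p. The other 9 did not pass the filter, with at most 0.465 FPKM (Grm8, in mutant sample 3). Over all 13, 0 passed with edgeR and 1 with DESeq2, whose filters differ, where 2.45% and 8.95% of all genes they tested did.

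**Figure D3:**
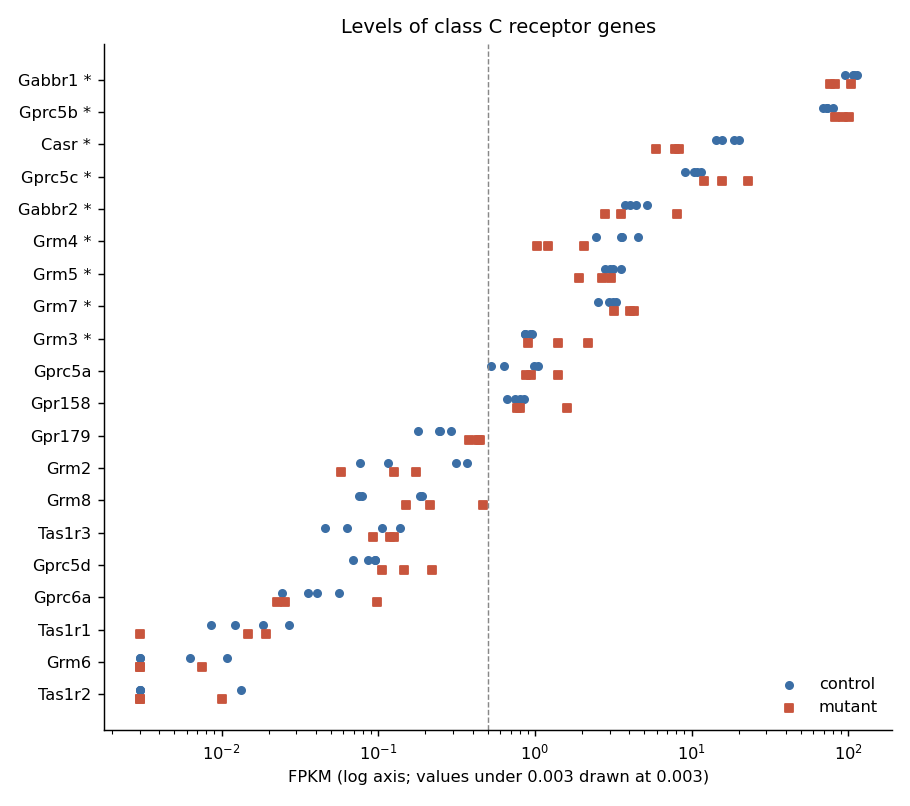
FPKM of class C receptor genes in each sample on a logarithmic axis, with round points for control and square points for mutant samples, values under 0.003 drawn at 0.003, an asterisk at the 9 receptors described here and a dashed line at the filter of 0.5 FPKM. Gabbr1 and Gprc5b are the most abundant, with control means of 106 and 73.8.

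The genes that work with these receptors were read from 13 lists, 1 of which holds the other class C receptors described above. Unlike the receptors followed here, the list genes are given with their tests. The lists were written from textbook roles, but with earlier results of these data known, so their p-values and shares are a description. All 189 genes of the lists were in the table, and 161 passed the filter. Of these, 5 were past the threshold (3 higher and 2 lower in mutants), which is 3.11% against 2.62% of all genes tested, and 59 had an unadjusted p under 0.05, as did 24.4% of all genes tested. The median log2 fold change was 0.18. Scaling that sets the samples' medians equal gave 1 higher and 2 lower, and edgeR gave 2.33% of the list genes, against 2.45% of all genes it tested. Pairing the samples by number gave 21 higher and 4 lower (15.5%, against 8.36% of all genes tested), and DESeq2 gave 26 higher and 14 lower (21.3%, against 8.95%). Leaving out single samples gave between 0 and 23 genes. The count was 0 without control sample 2, control sample 3 or mutant sample 3, 1 without control sample 1, 2 without control sample 4, and 23 without mutant sample 2.

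Transmitter handling held 3 of these 5 genes. Of 15 tested genes of glutamate uptake and metabolism, 2 rose, 1 fell and 12 did not pass, with a median log2 fold change of 0.35. Slc1a2, the main glutamate transporter of astrocytes, rose from an FPKM of 518 ± 57.2 (SD, n = 4) to 833 ± 153 (SD, n = 3), which is 0.67 in log2 units with a standard error of 0.136 (adjusted p = 0.0437, limma-trend). Slc38a1, a transporter of glutamine and other neutral amino acids, rose from 55.4 ± 8.15 to 80.1 ± 5.41 (log2 fold change 0.54, standard error 0.109, adjusted p = 0.0437, limma-trend). Slc1a1, another glutamate transporter, fell from 78.2 ± 4.23 to 58.1 ± 7.77 (log2 fold change -0.43, standard error 0.0932, adjusted p = 0.0491, limma-trend). Glul, glutamine synthetase and the most abundant gene of this list, was at 1420 ± 123 and 1934 ± 159, with an adjusted p of 0.0562 (limma-trend). With samples paired by number, 7 of the 15 genes passed, where 8.36% of all genes tested did.

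Among 16 tested ionotropic glutamate receptor genes 1 rose. Gria1, the AMPA receptor subunit GluA1, went from 46.6 ± 2.65 (SD, n = 4) to 77.0 ± 10.5 (SD, n = 3). The change was 0.71 in log2 units with a standard error of 0.0947 (adjusted p = 0.0197, limma-trend), while the median of the list was -0.09. Among 14 tested G protein beta and gamma subunits 1 fell. Gng4 went from 17.9 ± 0.621 to 11.2 ± 1.83 (log2 fold change -0.66, standard error 0.106, adjusted p = 0.0253, limma-trend), and the median of the list was -0.14. Gng12, the most abundant of them, was at 387 ± 21.3 and 322 ± 36.5 (adjusted p = 0.115, limma-trend). With pairing 4 of the 14 passed, where 8.36% of all genes tested did. For each of the 5 genes all mutant samples lay on one side of all controls, as in 21.1% of all genes tested. Genes past the threshold of this same contrast tend to be separated, so nothing further is read from it. The adjusted p of the 5 genes lay between 0.0251 and 0.0486 with pairing (limma-trend). It exceeded 0.05 with at least 1 sample left out for each of them, with a highest value of 0.131 (Slc1a2). With edgeR on recovered reads Gria1 (0.0278) and Gng4 (0.0285) were past the threshold, and Slc1a2 (0.0573), Slc38a1 (0.0603) and Slc1a1 (0.0530) were not.

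No gene of the other 10 lists, that of the other class C receptors among them, was past the threshold of limma-trend among 116 tested. Of these, 36 had an unadjusted p under 0.05 and 13 passed with pairing (limma-trend), where 24.4% and 8.36% of all genes tested did. The filters of edgeR and DESeq2 differ and let in more genes of these lists. Over all genes of the 10 lists 2 passed with edgeR and 22 with DESeq2. Of all genes that each of them tested, 2.45% and 8.95% passed. The alpha subunits (11 tested, median log2 fold change 0.02) include Gnas, the stimulatory subunit, at 393 ± 12.2 and 453 ± 50.3. Among effectors of the Gq branch (14 tested, median 0.20) the highest mean over all samples was that of Dgkz, a diacylglycerol kinase, at 35.3 ± 3.65 and 39.7 ± 2.18, whereas in control nerves Itpr2, an IP3 receptor, was above it, at 40.4 ± 7.37 and 31.2 ± 0.766. Those of adenylyl cyclase and protein kinase A (15 tested, median 0.17) were led by Prkar1a, a regulatory subunit, at 166 ± 3.53 and 171 ± 2.41. Regulators of receptors and G proteins (23 tested, median 0.21) were led by Rgs5, at 64.9 ± 12.7 and 71.5 ± 14.3.

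Scaffolds and auxiliary subunits of these receptors (17 tested, median 0.04) include Flna, the filamin that binds Casr, at 59.8 ± 6.75 and 72.7 ± 13.4. GIRK channels, opened by the GABA-B receptor, were low (2 tested, median 0.25), with Kcnj3 between 2.854 and 3.638 in control samples and between 2.993 and 4.645 in mutant samples. In the list of calcium and parathyroid hormone genes (6 tested, median 0.44), Pth1r, the hormone's receptor, was at 7.29 ± 0.761 and 9.18 ± 1.03. Among genes of GABA handling (10 tested, median 0.39) the highest mean over all samples was that of Slc6a13, a GABA transporter that is also in the list of meningeal markers, at 119 ± 13.5 and 193 ± 55.0, with an adjusted p of 0.0736 (limma-trend) and of 0.0251 with pairing. In control nerves Abat, which breaks GABA down, was above it, at 124 ± 6.47, with 143 ± 42.9 in mutants. GABA-A receptor subunits had 14 tested genes and a median of 0.32.

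**Figure D4:**
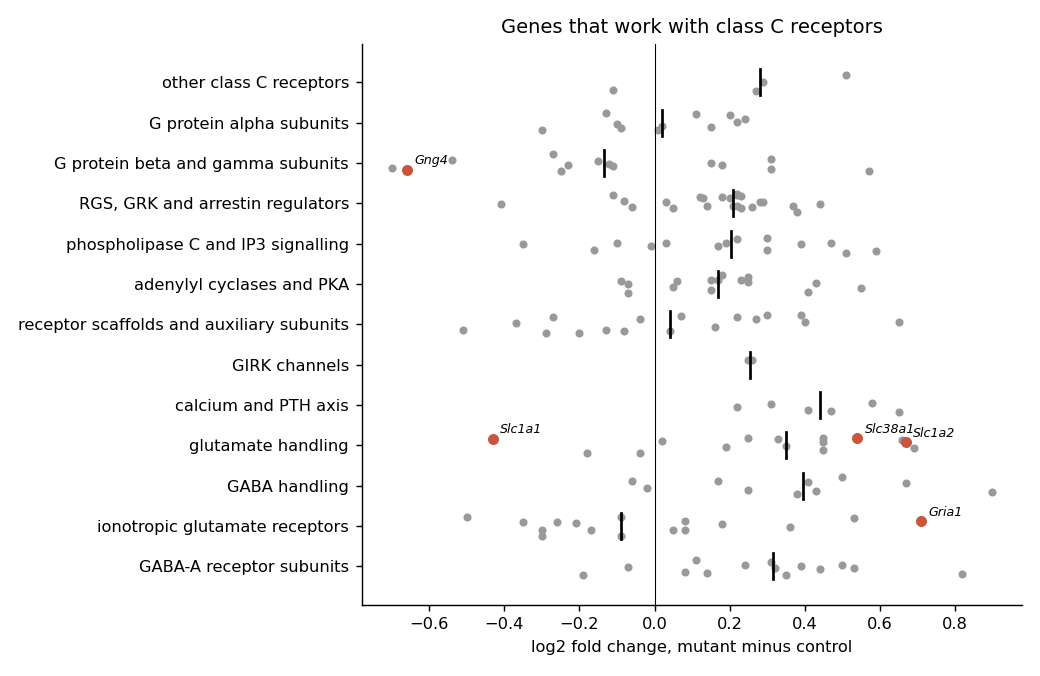
Log2 fold change (mutant over control) of each tested gene in the 13 lists of genes that work with class C receptors, with red points past the adjusted threshold, grey points not past it, and a black bar at the median of each list. The 5 red points are Slc1a2, Slc38a1 and Gria1 on the higher side and Gng4 and Slc1a1 on the lower side.

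Genes whose course over the samples was most like that of Casr and Grm4 were ranked by the root mean square difference of their log2(FPKM + 0.5), taken relative to the own control mean, over the 7 samples and 12829 genes. Nearest to Casr were Il23a (0.238), Gsx1 (0.264), Sp7 (0.281), Tmem2 (0.289) and Il12rb1 (0.313), where the median of all genes was 0.823. Nearest to Grm4 were Sp7 (0.245), Dlk2 (0.281), Slc16a3 (0.289), Tmem255b (0.289) and Il12rb1 (0.303), with a median of 0.798. Sp7, a zinc finger transcription factor, had an FPKM of 13.48, 13.74, 11.89 and 13.52 in control samples and 7.556, 6.432 and 5.05 in mutant samples. Il23a, a cytokine subunit, had 19.29, 22.11, 22.47 and 18.21 in control samples and 9.859, 9.587 and 10.1 in mutant samples. Since values are taken relative to the control mean, the root mean square difference depends largely on the size of the shift in mutants. A gene that does not change is far from Casr and Grm4 for that reason, and the medians largely follow from their fold changes. The ranking thus picks genes with a drop of similar size, on the contrast by which the receptors were chosen. The genes share libraries and depth, and the ranking is a description.

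Within mutant nerves 1 sample stood out for some receptors. The sum of 10 neuronal markers was 63.8, 63.6 and 94.5 in mutant samples 1 to 3 and 51.4 to 68.2 in control samples, highest in mutant sample 3, as were Grm3, Grm7 and Gabbr2. The sum of 7 meningeal markers was 1782, 937 and 1023 in mutant and 596 to 1023 in control samples, highest in mutant sample 1, as was Gprc5c. The part of these sums was not tested. No marker of neurons or meninges was past the threshold of limma-trend (1 of 10 and 4 of 7 at an unadjusted p under 0.05, 0 and 0 with edgeR, and 0 and 3 with DESeq2). With samples paired by number 1 of 10 and 5 of 7 passed, where 8.36% of all genes tested did. The other shares over all genes tested were 24.4% unadjusted, 2.45% with edgeR and 8.95% with DESeq2. Sums ranged from 302 to 365 in control and 342 to 387 in mutant samples for microglia and from 86.2 to 123 and 111 to 127 for mural cells. They ran from 8.54 to 11.6 and 10.5 to 15.2 for retina, from 2.11 to 3.12 and 2.85 to 69.7 for skeletal muscle (mutant sample 2 highest), and from 2851 to 12727 and 3816 to 5595 for erythrocytes (control sample 2 highest). Of the 3 parathyroid markers, Pth was at 0 in every sample and Gcm2 did not exceed 0.009716. Chga, the remaining marker, was present, at 11.7 ± 9.28 in control and 4.68 ± 1.75 in mutant nerves (SD). Its log2 fold change was -1.04 (adjusted p = 0.187, limma-trend), with control sample 2 highest at 25.62. The part of these markers was not tested.

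**Figure D5:**
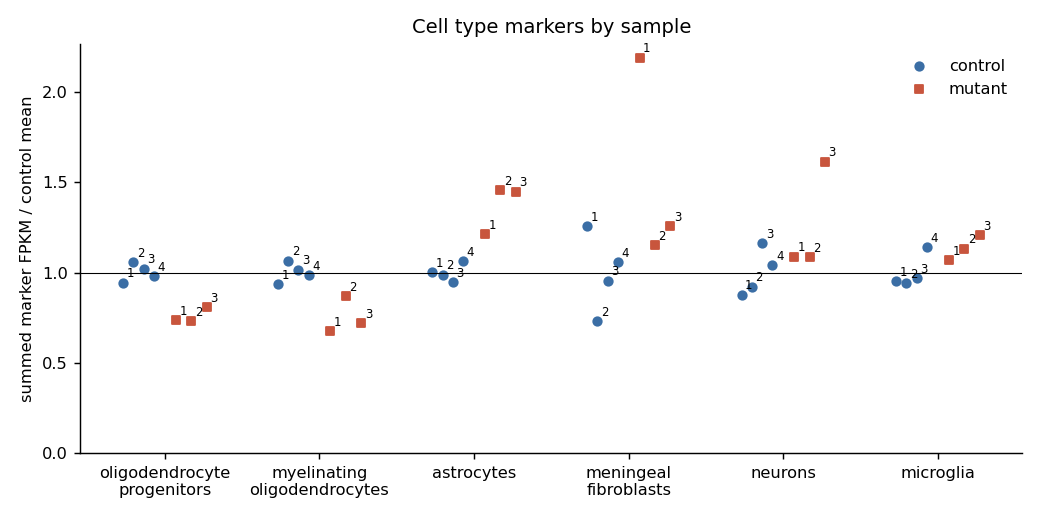
Summed FPKM of 6 marker lists relative to the mean of the control samples (vertical axis, starting at 0, line at 1), with 1 numbered point per mouse, round for control and square for mutant. Mutant samples lie below all controls for both lists of the oligodendrocyte lineage and above them for astrocytes, and the endothelial list is not drawn.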

How the data were processed

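Polyadenylated RNA of P14 optic nerves was sequenced with a stranded kit. The authors' notes name STAR 2.5.1b, RSEM 1.2.22, edgeR and GRCm38. They deposited 1 table of 22880 genes with 14 sample columns, all of which were used. One set is a normalized count, a signal the authors made by dividing estimated counts by a size factor, and the other an FPKM value the authors derived with gene length and library size. The columns of their own fold changes, p-values and FDR were not used. Whether counting used the strand is not given in the sources used here.

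Reads were recovered from the normalized counts as multiples of a sample's smallest step (75.7% to 81.0% of values of 0.5 to 10 reads were whole) and rounded for edgeR 4.0.16 and DESeq2 1.42.0. The main test was limma-trend (limma 3.58.1, R 4.3.3) on log2(FPKM + 0.5), with genotype as its term and Benjamini-Hochberg adjustment over the 13866 genes that reached 0.5 FPKM in 3 or more samples. Fold changes on this scale understate the change of low genes. Tested on simulated data with 200 changed genes among 15695, it recovered 192 with 11 false calls. The simulated samples were independent, with the same dispersion for every gene and changes of at least 1 log2 unit. This checks the code and gives no power or error rate for the real samples. Replicates differed beyond sampling noise, and each was kept. An exact permutation test of 1 gene cannot go below 0.0571.

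The receptors and lists were chosen with earlier results of these data known. Named are the receptors, Fasn, per list the genes past the threshold and the most abundant one, the 5 genes most like Casr and Grm4, overlapping genes, and markers set beside a result. Same-numbered samples tended to move together around their group means (correlations across genes of 0.168, 0.409 and 0.270 over 3 pairs, against -0.353 to 0.205 for other pairs). These ranges overlap, as mutant sample 1 had 0.168 with control sample 1 and 0.205 with control sample 4. The number was taken to pair samples from these same data, and the labels do not explain it. Control sample 4 has no partner, so the paired fold changes compare 3 controls with 3 mutants. Alternatives were pseudocount, filter, scaling, tool, pairing and leaving out each sample. Some genes are not reported here, among them 1 that the naming rule takes.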

Additional observations from a re-analysis of the deposited data

Results flagged for a closer look

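Single control samples stood apart from the other control samples in 6 of 64 groups of values, by the gap to the nearest sample over the range of the group, and chance gives this in about 1 in 20 groups. The groups were the FPKM of 52 genes (the receptors, Fasn, the genes named by rule, the genes most like Casr and Grm4, and 17 list genes picked after their values were seen) and 12 marker sums. Chga, a granin that made up nearly all of the parathyroid marker sum, had an FPKM of 25.62 in control sample 2, where the nearest control had 7.592, and so did that sum. The erythrocyte marker sum was 12727 in control sample 2, where the nearest control had 4318. The microglia marker sum was 365.1 in control sample 4, where the nearest had 309.9. Snap25, a synaptic protein gene, had 9.47 in control sample 3, where the nearest had 7.011. Sp7, among the genes most like Casr and Grm4, had 11.89 in control sample 3, the lowest control, where the nearest had 13.48. No receptor stood apart in this way in the control samples.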

How the results depend on the processing

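Of the 126 alternative values of the 9 receptors' log2 fold changes, all stayed within 1 replicate SD of the reported value. For the fits with 1 sample left out, group sizes this small fix that outcome in advance, so it is no sign of stability. The replicate block gave each receptor the same fold change as leaving out control sample 4, which has no partner. It is therefore no separate check. Gabbr2, whose fold change was near 0, changed sign in 7 of its 14, with the value shared by those fits counted for each. The counts of genes past the threshold depended more on the choices. Over all genes, 363 passed (175 higher, 188 lower). The replicate block gave 1159 (890 higher, 269 lower), DESeq2 1680, and no filter on low values 23. TMM scaling gave 152 higher and 258 lower, and equal sample medians 117 higher and 283 lower. Leaving out 1 sample gave 6 to 909 genes (62, 15, 6 and 119 without control samples 1 to 4, and 191, 909 and 6 without mutant samples 1 to 3). For the genes of the lists, other class C receptors included, 5 passed. Equal sample medians gave 3, the replicate block 25, DESeq2 40, no filter 0 (55 at an unadjusted p under 0.05 with limma-trend, over 189 genes), and leaving out 1 sample 0 to 23. The counts of 0 without control sample 2, control sample 3 and mutant sample 3 stood beside 48, 52 and 50 genes at an unadjusted p under 0.05 with limma-trend. The cause of these shifts was not tested. Reads were few for Grm3 and Grm4, with 82 and 78 in their lowest samples, and the receptors under the filter were not compared in the main test.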
